A study of Saccharomyces cerevisiae with 24 samples.

Results

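The galactose genes of Saccharomyces cerevisiae examined here are GAL1, GAL2, GAL3, GAL4, GAL7, GAL10 and GAL80, chosen by name. They are 7 of 6002 nuclear protein-coding genes with a known strand, and for all 7, as for 6000 genes, the 500 bp before the start codon lie whole on the chromosome. FAIRE enriches DNA with few proteins on it. Formaldehyde ties proteins to the DNA, sonication breaks it, and what phenol leaves in the water phase is sequenced. Giant colonies of BY4742, a MATalpha laboratory strain, were grown for 3 days on agar with yeast extract, glycerol, ethanol, little glucose and a pH dye. The medium described lists no galactose. FAIRE and unfixed input libraries were made from a biomass of either 4 or 20 mg, or of 100 or 500 mg, with 3 biological replicates each, and each FAIRE library gave 1 list of peaks against its own input. The series title names the adaptation of the assay to low cell numbers as its aim. All groups carry the same strain background and growth, so biomass is the labelled difference between them.

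The galactose pathway is a classic case of a gene set held ready and switched on by a sugar. Gal2 carries galactose across the plasma membrane, and Gal1 (galactokinase), Gal7 (galactose-1-phosphate uridylyltransferase) and Gal10 (a bifunctional epimerase and mutarotase) pass it into glycolysis by way of glucose phosphates. Gal4 is the activator that binds upstream of these genes, Gal80 masks it in the absence of galactose, and Gal3 senses galactose and relieves Gal80. Glucose represses the pathway, largely through Mig1, and in glycerol the genes are neither repressed in this way nor induced.

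The 12 lists held between 4180 and 6439 peaks, with 6204 or more in each 20 mg library and at most 5804 in each of the others. A promoter is called marked in a library when the summit of at least 1 peak falls within the 500 bp before its start codon. A gene is called covered when a peak overlaps its coding sequence by at least 50 bp. Positions are relative to the start codon of the gene named, negative upstream, and chromosome coordinates are 1-based on build R64 (sacCer3). Fold enrichments are the authors' own ratios of FAIRE over input at the summit, and they describe each list by itself. Over all peaks of a list their median was 2.08 to 2.81 at 4 mg and 2.14 to 2.40 at 20 mg. It was 1.87 to 2.27 at 100 mg and 2.95 to 3.16 at 500 mg. Fewer cells with open DNA at a site and less open DNA per cell cannot be told apart in these bulk samples.

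Upstream marking differed widely among the 7 genes. GAL2 and GAL3 were marked in 12 of 12 libraries, GAL1 and GAL10 in 11 through 1 shared peak, GAL4 in 6, and GAL7 and GAL80 in 0. The windows of GAL1 and GAL10 overlap, so these genes are not independent. Thus 2 of 7 were marked in all 12 libraries, beside 9.73% of all genes, and 2 of 7 in none, beside 58% of all genes. With GAL1 and GAL10 included, 4 of 7 were marked in 11 or 12 libraries, beside 13.4% of all genes. Without 20 mg replicate 2, the library that lacked the shared peak, 4 of 7 were marked in all remaining lists, beside 10.3% of all genes. Both settings were picked with the absence of the shared peak from that library known. The count of 4 follows from that choice, and GAL1 and GAL10 add only 1 shared peak to it. The coding sequence was covered in all 12 libraries for 5 of 7 genes, beside 34.5% of all genes. GAL3 was covered in 11 and GAL7 in 0.

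GAL1 and GAL10 are transcribed away from each other from an intergenic region of 668 bp (chromosome II, 278353 to 279020). A single peak lay in this region in 11 libraries. Its summit was at -404.1 bp from the GAL1 start codon and at -264.9 bp from that of GAL10 (SD 6.58 bp, n = 11 libraries), and all 11 summits fell between -411 and -386 relative to GAL1. The peak was between 204 and 363 bp wide, with a median of 302 bp, so that the DNA next to both start codons lay outside it. Of 1527 divergent intergenic regions, 22% had a summit in 11 or 12 libraries and 17.9% in all 12.

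The fold enrichment at this summit was 2.15, 2.63 and 4.38 in the 4 mg libraries. For 20 mg it was 2.09 (replicate 1) and 3.95 (replicate 3). The 100 mg libraries had 1.92, 2.51 and 1.97, and the 500 mg libraries 2.82, 4.81 and 4.45. In its own list the peak had a higher −log10 p than 58.3% to 98.4% of peaks, with a median of 80.8%. The exception was 20 mg replicate 2, where no peak touched the region, although its list was the longest, held peaks in both flanking coding sequences, and had upstream peaks at GAL2 (fold enrichment 2.38) and GAL3 (2.32).

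**Figure D1:**
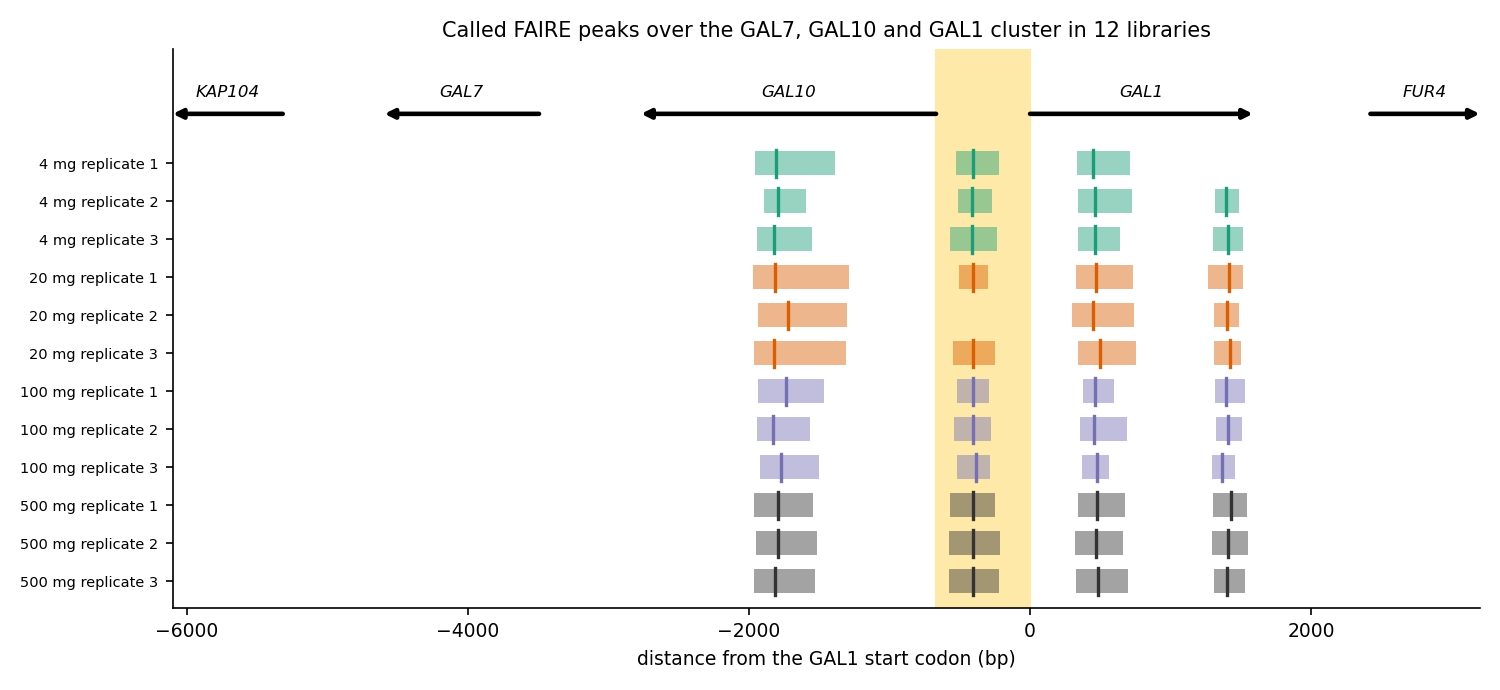
Called peaks (bars) and their summits (vertical lines) in the 12 libraries over the GAL7, GAL10 and GAL1 cluster, by distance from the GAL1 start codon in bp; arrows show genes in their direction of transcription, colours show biomass, and the shaded band is the region between GAL1 and GAL10 (KAP104 and FUR4 run on beyond the range shown). The shared promoter has a peak in 11 libraries and none in 20 mg replicate 2, and GAL7 has none in any library.

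Both coding sequences beside the shared promoter also carried recurrent peaks. In GAL1 a summit lay 467.1 ± 13.5 bp (SD, n = 12 libraries) inside the gene in every library, with fold enrichments from 1.97 to 3.96 and a median of 2.75. A weaker one lay near the 3' end, at 1404 ± 16.7 bp (SD, n = 11), with a median of 2.24, and was missing in 4 mg replicate 1. In GAL10 a summit lay at 1125 ± 34.7 bp (SD, n = 12) in every library, with a median fold enrichment of 2.55 and a range of 1.80 to 4.02. Peaks thus covered 33.6% ± 6.14 of the GAL1 coding sequence and 23.0% ± 5.82 of that of GAL10 (SD, n = 12).

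GAL7 (chromosome II, 274427 to 275527) was the exception in the cluster. No base of its coding sequence or of its 500 bp upstream window lay in a peak in any of the 12 libraries, a state shared by 17.5% of all genes. The gap extended far beyond the gene. From 272014 to 277049, 5036 bp without a peak in any library ran from inside KAP104, through GAL7, into the 3' part of GAL10. Among the 6993 stretches of the nuclear genome that lay in no peak of any list, it ranked 232 by length, where the median was 598 bp. The nearest peak on the upstream side of GAL7 was the coding peak of GAL10, whose edge lay 1522 to 1598 bp before the GAL7 start codon. The absence of a peak says that the caller's threshold was not passed, not that the DNA was closed.

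GAL2 (chromosome XII, 290212 to 291936) had the strongest upstream peak of the set by median fold enrichment. Its summit lay at -395.1 ± 8.94 bp (SD, n = 12) from the start codon, between -409 and -384. The fold enrichments were 2.56, 3.31 and 3.62 in the 4 mg libraries, 2.37, 2.38 and 4.15 in those of 20 mg, 1.77, 3.08 and 2.24 in those of 100 mg, and 4.09, 4.67 and 3.92 in those of 500 mg. The lowest value was that of 100 mg replicate 1, and every library had the peak. The median of 3.20 ranked 111 among the 584 promoters marked in all libraries, whose median was 2.90. The peak exceeded 93.8% of the peaks of its own list in the median library.

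Inside GAL2 the peaks were less regular. A summit at 1380 ± 15.1 bp (SD, n = 10) was called on its own in 10 libraries. In 20 mg replicate 1 and 20 mg replicate 3 a single wide peak, with its summit at 882 bp and 881 bp, covered this place too. A summit at 877.6 ± 10.1 bp (SD, n = 8) was seen in 2 of 3 libraries at 4 mg, 3 of 3 at 20 mg and at 500 mg, and 0 of 3 at 100 mg. Peaks near 200 bp were called in 3 libraries only, with fold enrichments from 1.56 to 1.96. The neighbours EMP46 and SRL2 were not marked in any library.

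GAL3 (chromosome IV, 463434 to 464996) had its upstream summit closer to the gene, at -282.5 ± 9.23 bp (SD, n = 12), between -303 and -263. The fold enrichments were 2.12, 2.34 and 3.19 in the 4 mg libraries, 3.02, 2.32 and 2.77 in those of 20 mg, 2.31, 2.83 and 2.16 in those of 100 mg, and 3.45, 3.53 and 4.53 in those of 500 mg. With a median of 2.80 it ranked 354 among the 584 promoters marked throughout, below their median. In its own list the peak had a higher −log10 p than 54.5% to 95.4% of peaks, with a median of 73.8%. The place of the summit was kept closely at both genes. Over libraries its SD was 8.94 bp at GAL2 and 9.23 bp at GAL3, where the median SD of the 584 promoters was 16.8 bp (quartiles 12.1 and 25.8 bp). Another upstream summit, at -646.8 ± 19.7 bp (SD, n = 4) and so outside the window, was called in 2 libraries at 20 mg and 2 at 500 mg.

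The 3' end of GAL3 lay next to the strongest peak found around any of the 7 genes. Its summit was at 1751 ± 22.3 bp (SD, n = 12), past the stop codon and within the convergent gene YDR010C, which has no assigned name. It had a median fold enrichment of 3.22 and a maximum of 5.26, and peaks covered 99.1% ± 3.03 of YDR010C (SD, n = 12). In 6 libraries this peak ran on into the last part of the GAL3 coding sequence, and in 4 others a separate summit lay there, at 1384 ± 7.14 bp (SD, n = 4). Within GAL3 itself a weak summit at 499.5 ± 12.2 bp (SD, n = 10), with a median of 2.13, was missing in 100 mg replicate 1 and 500 mg replicate 1. In 100 mg replicate 1 no peak overlapped the coding sequence.

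GAL80 (chromosome XIII, 171594 to 172901) was marked in no library, yet it had a peak across its start codon in all 12. The summit lay 57.9 ± 7.56 bp (SD, n = 12) inside the coding sequence, between 46 and 73, and therefore outside the window that defines marking. The fold enrichments were 2.50, 1.94 and 3.58 in the 4 mg libraries, 2.1, 2.53 and 2.83 in those of 20 mg, 2.66, 2.02 and 2.12 in those of 100 mg, and 3.37, 3.41 and 4.19 in those of 500 mg. In its own list the peak had a higher −log10 p than 30.8% to 97.3% of peaks, with a median of 71.1%. The SD of the summit's place over libraries lay between that at the shared promoter (6.58 bp) and that upstream of GAL2 (8.94 bp). Upstream, a wide peak lay over SUR7, which encodes a plasma membrane protein and ends 283 bp before GAL80. Its summit was at -684.1 ± 9.67 bp (SD, n = 12), and peaks covered 87.6% ± 9.84 of SUR7. The end of this peak and the front of the start codon peak made up the 57.2% ± 11.2 of the GAL80 window that was covered. Another summit, 918.1 ± 24.9 bp (SD, n = 11) inside the gene, had a median of 1.92 and was missing in 4 mg replicate 2.

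GAL4 (chromosome XVI, 79711 to 82356) showed how marking can rest on the shape of a peak. All 12 libraries had a peak over its upstream window, and 23.6% of all genes had one in every list. The summit fell in the window in 6 libraries: 4 mg replicate 1 and replicate 3, 20 mg replicate 3, 100 mg replicate 1 and replicate 3, and 500 mg replicate 2. In the others the peak had its summit farther upstream, between -503 and -1432. In 10 libraries, all but 100 mg replicate 1 and replicate 3, a single peak of 1600 bp or more extended through YPL247C, an uncharacterised gene that lies 268 bp upstream and points the same way, and peaks covered 96.4% ± 9.56 of that gene (SD, n = 12). In 500 mg replicate 2 it ran without a break across the GAL4 start codon and covered 100% of the window.

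Within GAL4, a summit near the 3' end, at 2238 ± 14.9 bp, was present in 12 of 12 libraries (SD, n = 12; median fold enrichment 2.71, range 1.84 to 3.93). A summit just inside the start codon, at 91.0 ± 26.2 bp (SD, n = 9), was called in 9 libraries and had a median of 2.31. Another at 1174 ± 23.99 bp (SD, n = 9) was also called in 9, with a median of 2.16. One at 546.0 ± 23.4 bp (SD, n = 5) was called in 3 of 3 libraries at 20 mg, 1 of 3 at 100 mg, 1 of 3 at 500 mg and 0 of 3 at 4 mg.

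Among these genes the share of the upstream window in peaks followed the order GAL4 (72.7% ± 11.1), GAL80 (57.2% ± 11.2), GAL10 (52.5% ± 19.5), GAL3 (51.5% ± 7.17), GAL2 (51.0% ± 7.89), GAL1 (44.8% ± 15.3) and GAL7 (0% in each library; others SD, n = 12). From GAL80 to GAL1 each step in this order was smaller than the SD. The median of the 7 gene means was 51.5%, beside 5.18% for all genes. For the coding sequence it was 29.8%, beside 11.9%. GAL2 led with 34.3% ± 11.95, and GAL1, GAL80, GAL3, GAL4 and GAL10 lay between 33.6% and 23.0%.

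Whether biomass changed the extent of the peaks was tested gene by gene with an exact permutation test over all 369600 assignments of the 12 lists to the 4 biomasses, with Benjamini-Hochberg adjustment over all genes of variable coverage. For the upstream window, 0 of the 6 galactose genes that could be tested passed an adjusted p of 0.05, and 0% of 3683 genes did. For the coding sequence 0 of 6 passed, and 0% of 4313 genes did. At an unadjusted p below 0.05 there was 1 galactose gene for the window, GAL80, beside 18% of genes, and 3 for the coding sequence, GAL1, GAL2 and GAL10, beside 27.6%. Both shares of all genes were above the threshold of 0.05 itself. The 0 after adjustment therefore does not show that coverage was equal across biomasses. GAL7 had no coverage to test.

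The coding coverage of GAL10 was 26.9%, 14.5% and 18.7% in the 4 mg libraries, 32.6%, 30.4% and 31.1% in those of 20 mg, 22.5%, 18.0% and 20.0% in those of 100 mg, and 20.0%, 20.5% and 20.8% in those of 500 mg. All 3 libraries of 20 mg lay above the other 9 (exact permutation test, p = 0.0190, adjusted p = 0.125). GAL1 had 23.8%, 34.9% and 32.1% in the 4 mg libraries, 41.2%, 39.3% and 38.1% in those of 20 mg, 27.4%, 32.7% and 22.4% in those of 100 mg, and 36.2%, 37.6% and 37.7% in those of 500 mg. Its 20 mg libraries too lay above the other 9 (exact p = 0.0227, adjusted p = 0.133), a pattern that 14.9% of genes showed. GAL2 had 29.7%, 19.0% and 33.1% in the 4 mg libraries, 42.9%, 50.9% and 56.2% in those of 20 mg, 20.4%, 21.3% and 31.7% in those of 100 mg, and 29.1%, 43.7% and 33.2% in those of 500 mg. There 500 mg replicate 2 overlapped the 20 mg libraries (exact p = 0.0114, adjusted p = 0.125). Over all genes the mean coding coverage was also highest at 20 mg, 28.4% ± 1.21, where 4 mg had 22.2% ± 3.14, 100 mg had 21.6% ± 2.86 and 500 mg had 25.1% ± 0.717 (SD, n = 3 each). With each library's coverage divided by its mean over all genes, an alternative chosen after seeing the data, the exact p was 0.864 for GAL1, 0.167 for GAL10 and 0.0305 for GAL2. For the window the same division gave an exact p of 0.0201 for GAL1, 0.0182 for GAL10 and 0.181 for GAL80, where the undivided coverage gave 0.129, 0.0871 and 0.0405. After adjustment 0 of 6 genes passed for either region.

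The shared promoter was covered for 45.2%, 35.9% and 49.7% of its length in the 4 mg libraries, 30.5%, 0% and 45.2% in those of 20 mg, 34.0%, 39.5% and 35.6% in those of 100 mg, and 48.5%, 54.3% and 52.8% in those of 500 mg. Coverage at 500 mg overlapped that at 4 mg through 4 mg replicate 3 alone. Over the biomasses the exact permutation test gave p = 0.0871, with 49.0% of the variance between groups. Leaving out 20 mg replicate 3 gave an exact p of 0.000519, with 20 mg then represented by the library without the peak and the one with the narrowest peak. Without 20 mg replicate 2 it was 0.0631. Coverage of the GAL80 window was 45.7% ± 17.0, 64.3% ± 3.11, 54.1% ± 4.01 and 64.6% ± 2.16 in order of rising biomass (SD, n = 3 each; exact permutation p = 0.0405, adjusted p = 0.260). The GAL3 window was covered for 45.7% ± 8.93, 52.0% ± 6.26, 49.1% ± 2.80 and 59.1% ± 3.06 in the same order (SD, n = 3 each; exact permutation p = 0.120, adjusted p = 0.351). For GAL2 these were 52.3% ± 5.46, 44.2% ± 9.70, 49.7% ± 7.77 and 57.8% ± 3.82 (exact permutation p = 0.186, adjusted p = 0.384). For GAL4 they were 65.3% ± 8.60, 76.7% ± 8.10, 67.1% ± 2.90 and 81.7% ± 16.0 (exact permutation p = 0.201, adjusted p = 0.400).

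**Figure D2:**
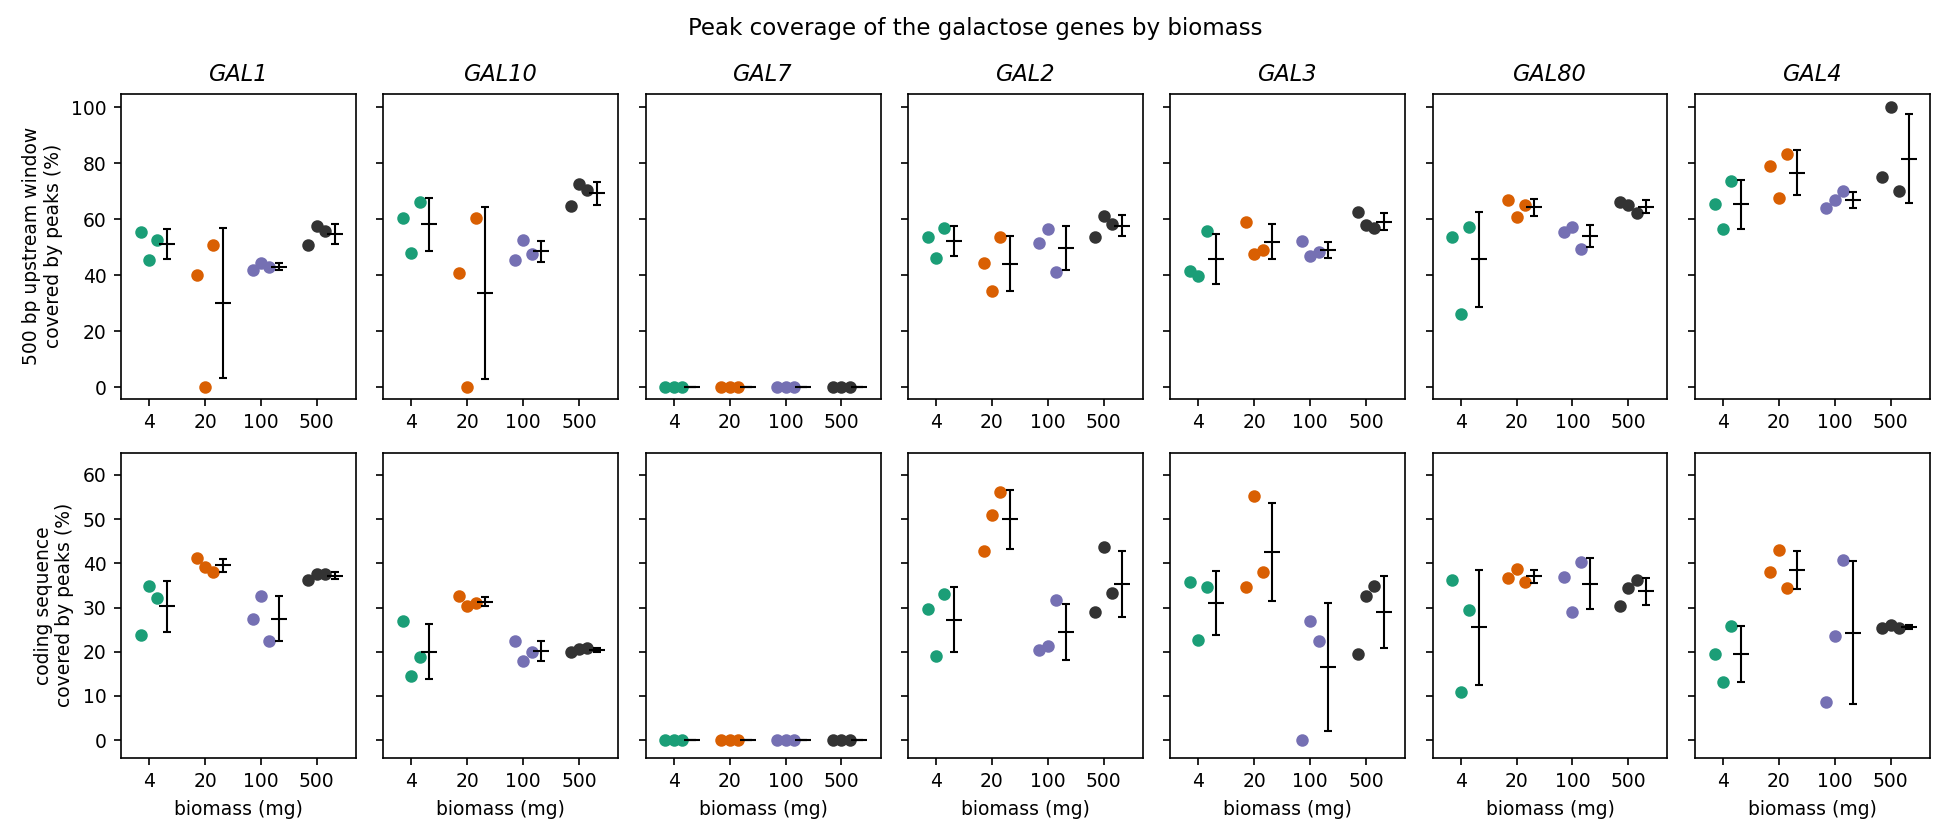
Percent of the 500 bp upstream window (top) and of the coding sequence (bottom) covered by peaks for each galactose gene, by biomass in mg; dots are single libraries and the dash with its bar is the mean and SD of 3. GAL7 is at 0 throughout, the 20 mg library at 0 for GAL1 and GAL10 is replicate 2, and the 20 mg libraries lie above the other 9 in the coding coverage of GAL1 and GAL10.

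The number of fragments behind these peaks was worked out from the fold enrichment and p-value given for each peak. From these the FAIRE pileup and the input level at a summit can be solved, both on the caller's scale. The input level is the background value the caller used. In 20 mg replicate 2 it was 39.26 at summits in GAL1, GAL2, GAL4 and GAL80 alike. Low input levels, and ratios built on them, therefore need not be counts at the summit itself. In 4 mg replicate 2, 4 mg replicate 3 and 100 mg replicate 1 most solutions were not whole numbers, so the values of these lists are less certain. At the shared promoter the FAIRE pileup was between 135 and 249 fragments, with a median of 173, over an input level between 43.0 and 89.6. At GAL2 it was between 132 and 256 over 39.8 to 98.8, at GAL3 between 96.0 and 219 over 40.5 to 59.98, and at the start of GAL80 between 90 and 192 over 39.3 to 63.0. The highest input levels at the shared promoter and GAL2 were those of 100 mg replicate 1, and outside the 3 less certain lists the highest were 77.95 and 71.95. Fragments copied in amplification are not independent, so counting error understates the error of these values.

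The input level at the shared promoter and upstream of GAL2 was above the list median in most libraries. Relative to the median over all summits of the same list, the input level at the shared promoter had a median of 1.36 (range 1.01 to 1.54, n = 11 libraries), and upstream of GAL2 1.26 (0.947 to 1.63, n = 12). Upstream of GAL3 it was 0.988 (0.905 to 1.199), and at the start of GAL80 1.04 (0.920 to 1.26). The median of this ratio over all summits in upstream noncoding sequence was between 0.962 and 1.05 per library. The spread over those single summits was not computed, so how unusual the 2 sites are was not tested. At the shared promoter the libraries fell apart in this ratio. In 4 mg replicate 3 it was 1.01, in 20 mg replicate 3 and 500 mg replicate 2 it was 1.02, and 500 mg replicate 3 had 1.08, where the fold enrichment was 3.95 or more. In the other 7 it was between 1.29 and 1.54, where the fold enrichment was at most 2.82. The fold enrichment is computed from the input level, so the pair of values is not independent.

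**Figure D3:**
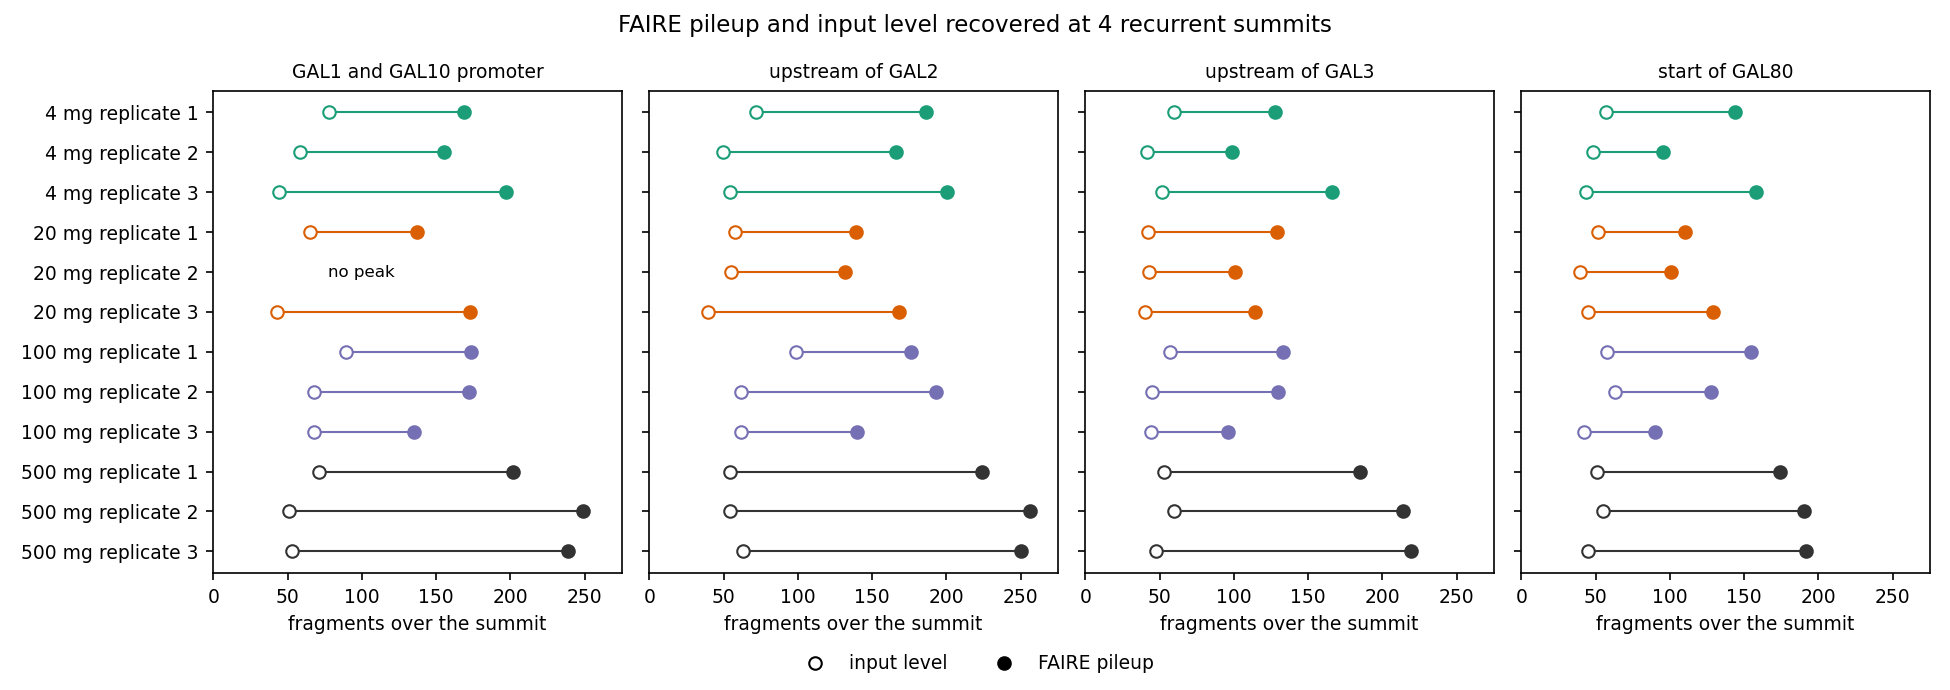
FAIRE pileup (filled) and input level (open), in fragments over the summit on the peak caller's scale, at 4 recurrent summits in the 12 libraries; colours show biomass. The pileup lies above the input level at each summit because of the way peaks are called. The input level, the background value the caller used, ranges from 43.0 to 89.6 at the shared promoter.

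Genes that work with the pathway were set beside it by role, as lists described without a test. Of 4 further genes known to be bound by Gal4, GCY1, encoding a glycerol dehydrogenase, was marked in 12 libraries (median fold enrichment 2.60). MTH1, a regulator of hexose transporter genes, was marked in 1, and PCL10, a cyclin gene, in 0. FUR4, the uracil permease gene downstream of GAL1, was marked in 0. Thus 1 of 4 was marked in all 12 libraries, beside 9.73% of all genes, and 2 of 4 in none, beside 58%. In a list of 3 genes for sugar phosphate steps and LAP3, PGM2, the main phosphoglucomutase, was marked in 12 (3.16). LAP3, also known as GAL6, encodes a cysteine aminopeptidase regulated with the GAL genes and carries out no sugar step, and it was marked in 10. UGP1, for UDP-glucose synthesis, was marked in 4 and PGM1, the minor phosphoglucomutase, in 3. In this list 1 of 4 was marked in all 12 libraries and 0 of 4 in none, beside the same shares of all genes.

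Of 13 genes of glucose repression and the Snf1 kinase, 3 were marked in all 12 libraries, beside 9.73% of all genes. These were MIG1, the repressor that acts on GAL genes (2.62), NRG1, another glucose-dependent repressor (3.29), and HXK2, a hexokinase gene (2.97). MIG2 was marked in 11 and 6 of the 13 in none, beside 58% of all genes, TUP1 and CYC8, the corepressor genes, among them. A peak overlapped the CYC8 window by at least 50 bp in 12 libraries, and the TUP1 window in 0. Of 6 genes of the Mediator tail and SAGA coactivators, 0 were marked throughout, and GAL11, a Mediator subunit through which Gal4 acts, was marked in 2 although a peak overlapped its window in 12. In these 4 lists 0 genes passed the biomass test after adjustment, for the window or the coding sequence (exact permutation tests). Of their 27 genes, 6 and 9 had an unadjusted p below 0.05, beside 18% and 27.6% of all genes tested. The 27 include genes without variable coverage, such as GLC7 and SNF4, which could not be tested. Their shares are therefore understated beside those of all genes tested.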

How the data were processed

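FAIRE and input DNA from BY4742 colonies were sequenced at 4 biomasses with 3 biological replicates, 24 samples in all, and the 12 input libraries were used only through the peak lists. The submitters' processing notes name build R64 (sacCer3), MACS2 2.1.1.20160309, Bowtie2 2.2.8, FastQC 0.11.5, bedtools 2.26.0 and SAMtools 1.4, without settings. Per the labels, each list was called on 1 pair of FAIRE and input libraries, so replicates were not pooled. The deposited columns hold positions in bp counted from 0, a score that is 10 times the −log10 q rounded down (not used), the authors' fold enrichment ratio, and −log10 of the p-value and of the q-value at each summit. Read totals were not analysed here.

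Summits were start plus offset, turned into 1-based coordinates. Gene positions are those of RefSeq on R64, with strands from systematic names and no untranslated regions. Sequences were not used here, so the planned search for Gal4 and Mig1 motifs was not run. Pileup x and input level l were solved from fold = (x + 1)/(l + 1) and a Poisson tail, and x was whole within 0.02 for 100% of peaks in 9 lists. In 4 mg replicate 2, 4 mg replicate 3 and 100 mg replicate 1 it was not (9.81%, 6.88% and 12.9%), and there the solution nearest a whole number was kept. Coverage tests used Python 3.11.15 with NumPy 2.4.6 and SciPy 1.17.1, were checked on simulated data, and had a smallest p of 6.49e-05. Recurrent sites were formed from summits at most 60 bp apart, after the data were seen. The 7 genes and the lists were chosen with earlier results of these data known. Genes named are the 7, their neighbours, the role lists and, per gene, the 2 genes over 5000 bp away with the most correlated window coverage. Alternatives were windows of 250 bp and 1000 bp, stricter peak sets, other overlap rules, left-out libraries, a replicate block, and coverage relative to the list mean.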

Additional observations from a re-analysis of the deposited data

How the results depend on the processing

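The marking counts depended on the window, for all genes too. With 250 bp upstream, 0 galactose genes were marked in all libraries and 7 in none, beside 2.03% and 83.8% of all genes. With 1000 bp, 3 genes were marked in all libraries, beside 26.2% of all genes, and 1 gene, GAL7, in none, beside 31.4%. GAL80 was then marked in 12 libraries, through the summit of the peak over SUR7. When a peak overlapping the window by 50 bp sufficed, 4 genes were marked throughout and 1 in none, beside 23.6% and 44.2%, and when 9 of 12 lists sufficed 4 were marked, beside 18.1%. Among the 3000 strongest peaks of each list, 2 genes were covered in all libraries, beside 12.03% of all genes, and 0 when peaks had to fill 50% of the coding sequence, beside 8.43%. Leaving out 1 library gave 2 to 4 genes marked in all, beside 9.78% to 10.75% of all genes. It gave 5 to 6 covered in all, beside 34.5% to 37.0%, and an exact p of 0.000519 to 0.207 for the shared promoter. Of the alternatives for the gene-level tests, 0 brought a galactose gene past an adjusted p of 0.05. Same-numbered libraries did not deviate together (3 of 18 pairs above a correlation of 0.1, and 1 of 12 libraries closest to its own number). The highest correlation across biomasses was 0.563, of 20 mg replicate 3 with 100 mg replicate 2. The lowest was -0.488, of 20 mg replicate 2 with 100 mg replicate 2. Low correlations cannot tell whether libraries of the same number were grown or prepared together. Replicate numbers are those of the sample titles, and the deposited lists of 100 mg and 500 mg carry other numbers for replicates 2 and 3, so pairing by those was not tested. With a replicate block 0 genes passed for the window and 0 for the coding sequence, and the shared promoter had an exact p of 0.106. Depth limits what can be said of regions without peaks: the lists hold no values there.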

Other observations

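Long antisense RNAs are annotated over 2 of these loci. YNCB0008W (chromosome II, 276805 to 280645) starts inside GAL10, 1547 bp from its start codon, and runs antisense to GAL10, through the shared promoter and along GAL1. Its start lay in the stretch without peaks, with no peak within 100 bp in any of the 12 libraries. The nearest summit, that of the GAL10 coding peak, lay 422.3 ± 34.7 bp (SD, n = 12) downstream of it. YNCP0002W (chromosome XVI, 79562 to 82648) runs antisense to GAL4. Its start also had no peak within 100 bp in any library, and the nearest summit, the constant one near the 3' end of GAL4, lay 556.1 ± 14.9 bp (SD, n = 12) downstream.

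Window coverage over the 12 libraries correlated most with that of GAL1 at YNL095C (Pearson r = 0.993) and APP1 (0.989), and with that of GAL10 at MLH2 (0.983) and POL32 (0.981). For GAL2 the most correlated were PAU5 (0.950) and ATP2 (0.939), for GAL3 YOR019W (0.933) and SAC7 (0.909), for GAL4 PCS60 (0.945) and YJR112W-A (0.899), and for GAL80 FZF1 (0.951) and BOL1 (0.946). These are the highest of at least 3363 genes each, and the genes share the same 12 libraries and lists. Without 20 mg replicate 2, the library at 0, a setting chosen after seeing the data, r was 0.975 and 0.928 for GAL1 with the same genes and 0.945 and 0.929 for GAL10 (n = 11 libraries). A high r does not mean a like level of coverage. Mean window coverage was 13.45% at PAU5, where GAL2 had 51.0%, and 94.9% at BOL1, where GAL80 had 57.2%. At YNL095C it was 48.4%, where GAL1 had 44.8%. The correlations are given as a description.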
